A study of Mus musculus with 8 samples.

Results

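Haptoglobin (Hp), Hedgehog-interacting protein-like 1 (Hhipl1), apolipoprotein C1 (Apoc1) and killer cell lectin-like receptor subfamily A member 2 (Klra2) were followed in FURIN deficient and WT peritoneal macrophages across 4 time points of LPS. The 4 genes were chosen by their KO/WT ratio, which had the same direction on all 8 arrays, and they were 4 of 37018 genes and transcripts on the array, of which 20887 carried a gene name. They were read by 5 probes, 1 each for Hp, Apoc1 and Klra2 and 2 for Hhipl1, and all 4 genes passed the filter on dim probes. The genes were thus selected on the ratio between the genotypes, which is given below as a description without a test. A lack of overlap between KO and WT samples follows in part from this choice. The share of all features without such overlap was not computed.

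FURIN is a proprotein convertase that cleaves precursor proteins in the secretory pathway, and LPS is the component of Gram-negative bacteria that activates macrophages through Toll-like receptor 4. The KO cells came from LysMCre-fur(fl/fl) mice, in which Cre driven from the lysozyme M locus (Lyz2) deletes the floxed fur alleles in myeloid cells. The WT cells came from littermates, and both were on the C57BL/6 background. Whether the WT littermates carried Cre or floxed alleles, and the age and number of animals behind an array sample, is not given in the sources used here. Peritoneal cells were cultured, non-adherent cells were washed off, and the adherent cells were harvested untreated or after 1, 4 or 24 h with LPS at 1 μg/ml. A 2-colour Agilent array received the KO and the WT RNA of the same stimulation, and each time point had 2 arrays described in the labels as biological replicates. In replicate 1 the KO RNA was labelled with Cy5 and in replicate 2 with Cy3, so that replicate and dye orientation cannot be told apart.

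Haptoglobin binds free hemoglobin, which is then taken up through the receptor CD163. The liver releases it during the acute phase response and neutrophils store it in granules. Apolipoprotein C1 is a small lipoprotein component, encoded beside Apoe, that inhibits lipoprotein lipase. Klra2 encodes Ly49B, a member of the Ly49 receptors for MHC class I. Most of that family is known from natural killer (NK) cells, but Ly49B is found on myeloid cells and carries an inhibitory motif in its cytoplasmic tail. Hhipl1 encodes a secreted relative of HHIP, the protein that binds and restrains Hedgehog ligands.

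The labels were checked on Furin and Lyz2. Furin was lower in the RNA labelled KO on 6 of 8 arrays, with log2 KO/WT ratios from -0.84 to -0.53, but the ratios of the 4 h arrays were 0.00 and 0.33. The position of its probe relative to the deleted part of the gene is not given in the sources used here, so it is a limited check. Lyz2, which carries the Cre, was lower in KO on all 8 arrays, at 4 h too, with a mean log2 ratio of -1.18 ± 0.37 (SD, n = 8). The 4 h KO samples are therefore described as labelled KO, and the ratios are also given without the 4 h arrays. Where all 8 arrays are counted, KO stands for the label. Between 43.8% and 51.3% of the gene spots of a channel were well above background, and no gene spot was saturated.

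Hp was lower in the RNA labelled KO than in WT at every time point. The normalized log2 intensities of the unstimulated samples (replicate 1, then replicate 2) were 16.78 and 16.70 in WT and 16.07 and 15.93 in KO. After 1 h they were 16.17 and 16.32 in WT and 15.37 and 15.09 in KO, after 4 h 14.60 and 14.76 in WT and 13.43 and 13.80 in the samples labelled KO, and after 24 h 16.45 and 16.06 in WT and 14.93 and 15.40 in KO. The genotypes did not overlap at any time, which follows in part from the choice of the gene. Within both genotypes the 4 h samples were the lowest. The log2 KO/WT ratios of replicates 1 and 2 were -0.71 and -0.77 unstimulated, -0.80 and -1.23 after 1 h, -1.18 and -0.96 after 4 h, and -1.52 and -0.67 after 24 h. Their mean was -0.98 ± 0.30 (SD, n = 8), corresponding to a 49.3% lower level in KO, and -0.95 without the 4 h arrays. Among the 404 named genes that were lower in KO on every array Hp had the second lowest mean ratio, where 1.45% of the 36927 genes and transcripts tested were lower on all 8 arrays.

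Hhipl1 was also lower in the RNA labelled KO at every time point. Its log2 intensities were 9.33 and 8.76 in unstimulated WT and 8.30 and 7.997 in unstimulated KO samples, and 8.94 and 8.64 in WT and 7.96 and 7.83 in KO after 1 h. After 4 h they were 7.76 and 7.89 in WT and 7.51 and 7.25 in the samples labelled KO, and after 24 h 7.11 and 7.23 in WT and 6.71 and 6.72 in KO. WT samples were above KO samples at each time without overlap, which follows in part from the choice of the gene. The levels of both declined to near background, and of the 24 h KO samples 1 of 2 was well above background. The log2 KO/WT ratios were -1.03 and -0.77 unstimulated, -0.98 and -0.81 after 1 h, -0.25 and -0.64 after 4 h, and -0.41 and -0.51 after 24 h. The mean was -0.67 ± 0.27 (SD, n = 8), a 37.3% lower level in KO, and it was -0.75 without the 4 h arrays. The second Hhipl1 probe was not well above background in any of 16 channels and gave a mean ratio of -0.01, so that the Hhipl1 values rest on 1 probe. The ratio of the first probe was -1.14 with the processed signals of the scanner software and -0.67 without background correction.

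Apoc1 was higher in the RNA labelled KO than in WT on every array. Its log2 intensities were 13.14 and 11.94 in unstimulated WT and 13.98 and 12.99 in unstimulated KO samples, and 12.97 and 11.58 in WT and 13.27 and 12.93 in KO after 1 h. After 4 h they were 11.45 and 10.21 in WT and 12.21 and 11.50 in the samples labelled KO, and after 24 h 9.28 and 8.08 in WT and 9.84 and 9.36 in KO. Replicate 1 was above replicate 2 in each of the 8 genotype and time groups, by 1.195 to 1.397 log2 units in WT and by 0.33 to 0.99 in KO. With this spread the WT and KO samples overlapped in the unstimulated state and at 1 h, and they did not at the later times, although on each array KO was the higher channel. The log2 KO/WT ratios were 0.84 and 1.05 unstimulated, 0.29 and 1.36 after 1 h, 0.76 and 1.29 after 4 h, and 0.56 and 1.28 after 24 h. The mean was 0.93 ± 0.38 (SD, n = 8), or 1.90-fold, and 0.90 without the 4 h arrays. The mean over the arrays of replicate 1 was 0.61 and over those of replicate 2 1.24, a difference that coincides with the dye orientation and whose origin was not tested.

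Klra2 was higher in the RNA labelled KO as well. Its log2 intensities were 9.26 and 9.04 in unstimulated WT and 10.42 and 10.43 in unstimulated KO samples, and 9.89 and 9.04 in WT and 10.23 and 10.55 in KO after 1 h. After 4 h they were 10.15 and 9.79 in WT and 10.48 and 10.61 in the samples labelled KO, and after 24 h 12.49 and 11.95 in WT and 12.62 and 12.66 in KO. The genotypes did not overlap at any time, which again follows in part from the choice of the gene. All 24 h samples were above all others. The log2 KO/WT ratios were 1.16 and 1.39 unstimulated, 0.34 and 1.503 after 1 h, 0.33 and 0.82 after 4 h, and 0.13 and 0.71 after 24 h. The mean was 0.80 ± 0.51 (SD, n = 8), or 1.74-fold, and 0.87 without the 4 h arrays. The mean was 0.49 over the arrays of replicate 1 and 1.11 over those of replicate 2. The 24 h value of replicate 1 was the smallest ratio of any of the 4 genes on any array, and it placed Klra2 just inside the selection. Klra9, a Ly49 gene of the same cluster, lay just outside, with a higher KO signal on 7 of 8 arrays and a mean ratio of 0.38 ± 0.27 (SD, n = 8). Of all genes and transcripts tested 1.35% were higher in KO on all 8 arrays.

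**Figure D1:**
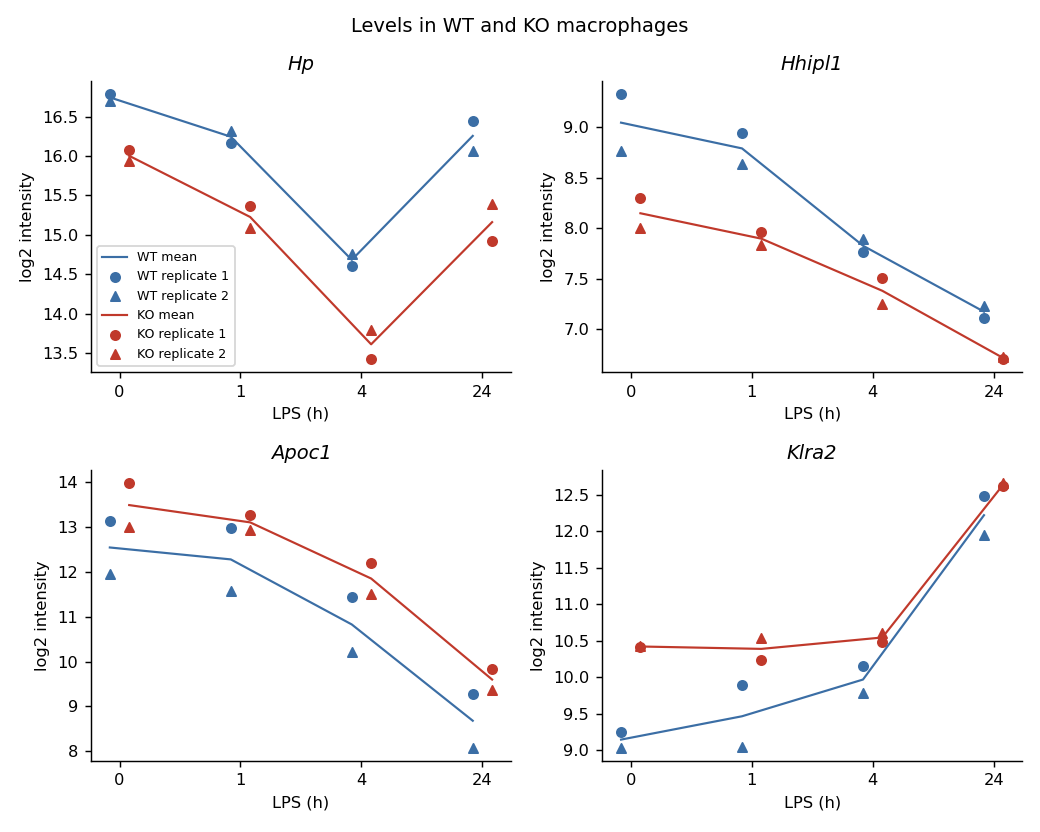
Normalized log2 intensity (vertical axis, a separate scale for each gene) of the 4 genes against hours of LPS, with a circle for replicate 1, a triangle for replicate 2 and a line through the means of WT (blue) and KO (red). Hp was lowest at 4 h, Hhipl1 and Apoc1 were lowest at 24 h, and Klra2 was highest at 24 h, in both genotypes.

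**Figure D2:**
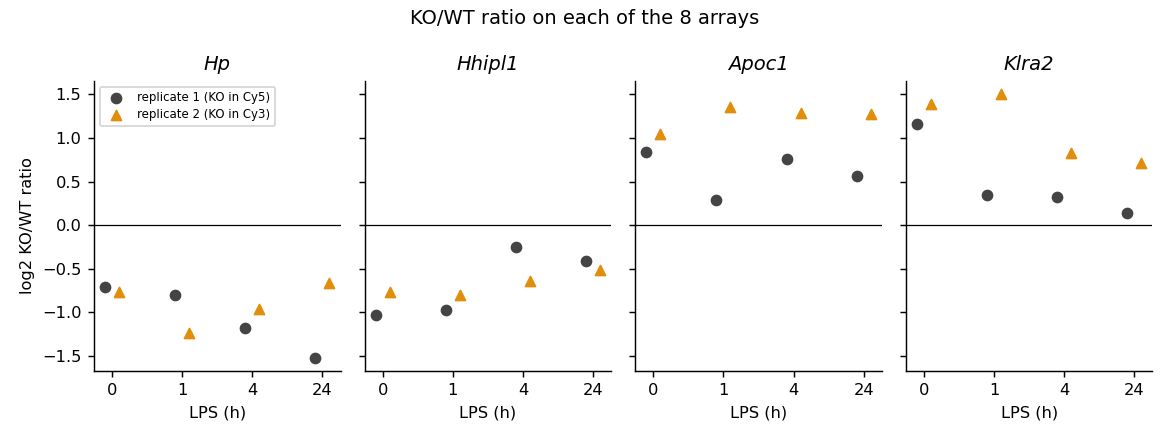
Log2 KO/WT ratio (vertical axis) on each of the 8 arrays against hours of LPS, with circles for replicate 1 (KO in Cy5) and triangles for replicate 2 (KO in Cy3). The points of Hp and Hhipl1 lie below 0 and those of Apoc1 and Klra2 above 0, which is the rule by which the genes were chosen, and for Apoc1 and Klra2 every triangle lies above the circle of the same time.

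The order of the 8 genotype and time groups was read from these means. For Hp it ran from unstimulated WT through 24 h WT, 1 h WT, unstimulated KO, 1 h KO, 24 h KO and 4 h WT to the 4 h samples labelled KO. The 24 h and 1 h samples overlapped within WT and also within KO. For Hhipl1 it ran from unstimulated WT through WT at 1 h, unstimulated KO, KO at 1 h, WT at 4 h, the 4 h samples labelled KO and WT at 24 h to KO at 24 h, where WT unstimulated and at 1 h overlapped, and so did KO at 1 h and WT at 4 h. For Apoc1 the first 5 groups, from unstimulated KO through KO at 1 h, unstimulated WT and WT at 1 h to the 4 h samples labelled KO, each overlapped the next, and WT at 4 h, KO at 24 h and WT at 24 h followed without overlap. For Klra2 the order was KO at 24 h, WT at 24 h, the 4 h samples labelled KO, unstimulated KO, KO at 1 h, WT at 4 h, WT at 1 h and unstimulated WT. Neighbouring groups overlapped between unstimulated KO and KO at 1 h and among the last 3 WT groups.

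The response to LPS within each genotype was not part of the stated rule for choosing the genes, which was the KO/WT ratio. The genes were chosen with earlier results of these data known, however, so the LPS p-values may not be free of that choice. The response was tested with limma over all 36927 genes and transcripts. The LPS times of a genotype share its unstimulated samples, and WT and KO of a time point share arrays. In WT samples 7 of the 12 tests against the unstimulated state passed an adjusted p of 0.05, and in the samples labelled KO 8 of 12. Hp, Hhipl1 and Apoc1 fell and Klra2 rose.

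Hp fell to its lowest level at 4 h and rose again by 24 h. In WT its log2 change at 4 h was -2.06 ± 0.18 (SE, adjusted p = 5.73e-07), a 76.0% lower level. In the samples labelled KO it was -2.39 ± 0.18 (adjusted p = 1.38e-07), an 80.9% lower level. From 4 to 24 h Hp rose again by 1.57 in WT (adjusted p = 1.33e-05) and by 1.55 in KO (adjusted p = 1.43e-05). At 24 h the difference from the unstimulated state was -0.84 in KO (adjusted p = 0.00255) and -0.49 in WT (adjusted p = 0.0586). The WT value passed the threshold with the processed signals (adjusted p = 0.0182), with Aquantile normalization (0.0210), with a filter on probes above background (0.0414) and without replicate 1 of 24 h (0.0132). It was -0.30 without replicate 2 of 24 h (adjusted p = 0.293), and over all alternatives its adjusted p ranged from 0.0132 to 0.313. At 1 h Hp fell in KO by 0.78 (adjusted p = 0.0174), a call that was lost without either unstimulated array (0.169 and 0.0706) or without replicate 2 of 1 h (0.191), and the WT change was -0.50 (adjusted p = 0.131).

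Hhipl1 fell by 4 h and further by 24 h. At 4 h its log2 change was -1.22 ± 0.17 (SE, adjusted p = 4.29e-05) in WT and -0.77 ± 0.17 (adjusted p = 0.00214) in the samples labelled KO. At 24 h it was -1.87 (adjusted p = 1.12e-06) in WT and -1.43 (adjusted p = 1.48e-05) in KO, where 1 of the 2 samples was not well above background. The fall from 4 to 24 h also passed the threshold in WT (-0.65, adjusted p = 0.00829) and in KO (-0.67, adjusted p = 0.00708). The size of the fall in KO at 24 h ranged over the alternatives from -2.80 with the processed signals to -0.72 with the mean of both probes. The KO/WT ratio at 4 and 24 h averaged -0.45 and -0.46, against -0.90 unstimulated, a difference that was not tested because the ratios chose the gene. With the processed signals the fall at 24 h was -2.64 in WT and -2.80 in KO, so that the ratio was not closer to 0 at 24 h than before LPS.

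Apoc1 showed the largest fall of the 4 genes. At 24 h its log2 change was -3.86 ± 0.54 (SE, adjusted p = 7.25e-05) in WT, 14.5-fold below the unstimulated level, and -3.89 ± 0.54 (adjusted p = 7.27e-05) in KO, 14.8-fold below it. At 4 h it was -1.71 (adjusted p = 0.0235) in WT and -1.64 (adjusted p = 0.0292) in the samples labelled KO. These 4 h calls were lost without unstimulated replicate 1 (adjusted p = 0.226 in WT and 0.208 in the samples labelled KO) and without 4 h replicate 2 (0.249 and 0.157). With 1 array left out the change ranged from -2.34 to -1.09 in WT and from -2.13 to -1.14 in the samples labelled KO. With the replicate number as a block their adjusted p was 2.48e-05 in WT and 3.80e-05 in the samples labelled KO (limma). The changes at 24 h within replicates 1 and 2 were -3.86 and -3.86 in WT and -4.14 and -3.63 in KO. With 1 array left out the 24 h change ranged from -4.46 without unstimulated replicate 2 to -3.26 without unstimulated replicate 1 in WT, and from -4.38 to -3.39 without the same arrays in KO.

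Klra2 was the only one of the 4 that rose above its unstimulated level. At 24 h its log2 change was 3.07 ± 0.24 (SE, adjusted p = 3.45e-07) in WT, or 8.41-fold, and 2.22 ± 0.24 (adjusted p = 8.32e-06) in KO, or 4.65-fold. At 4 h it rose by 0.82 in WT (adjusted p = 0.0166) and its change was 0.12 in the samples labelled KO (adjusted p = 0.775). The 4 h call in WT was lost without unstimulated replicate 2 (adjusted p = 0.132) and without 4 h replicate 1 (0.153). The KO/WT ratio averaged 1.27 unstimulated, 0.92 after 1 h, 0.58 after 4 h and 0.42 after 24 h, and this course was not tested for the same reason as for Hhipl1.

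The arrays changed widely with LPS, and the counts of the 4 genes stand against that background. The shares below are over all 36927 features, of which 12687 were not well above background in any channel. The share called was larger among 23081 features well above background in at least 2 of 16 channels. Of these 13056 were called in either direction in WT at 4 h and 11585 at 24 h. In the samples labelled KO 13415 were called at 4 h and 10934 at 24 h. In WT at 1 h none of the 4 passed with limma, where Hp had an unadjusted p of 0.0164 and 5.19% of all genes and transcripts fell and 3.36% rose, and the methods' t-test gave 1 of the 4 at an unadjusted p under 0.05, against 13.2% of all. In KO at 1 h 1 of the 4 fell, where 4.41% of all fell and 3.11% rose. In WT at 4 h 3 fell and 1 rose, against 19.3% and 15.4% of all, and at 24 h 2 fell and 1 rose, against 16.8% and 13.5%. In the samples labelled KO at 4 h 3 fell and none rose, against 19.8% and 16.2%, where Klra2 had an unadjusted p of 0.621, and in KO at 24 h 3 fell and 1 rose, against 15.7% and 13%. From 1 to 4 h 2 of the 4, Hp and Hhipl1, fell under either genotype label, against 15.6% of all in WT and 16.8% in KO, where 14% and 14.9% rose. The Apoc1 change from 1 to 4 h was -1.45 in WT (adjusted p = 0.0616) and -1.25 in the samples labelled KO (adjusted p = 0.104), and with the replicate number as a block, an alternative chosen after seeing the data for this interval, it passed the threshold in both (adjusted p = 1.47e-04 and 4.68e-04, limma), so that 3 of the 4 fell there, against 16.2% and 17.4% of all. From 4 to 24 h 2 of the 4 rose and 2 fell in each genotype, against 15.3% and 14.5% of all in WT and 15.8% and 14.9% in KO.

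**Figure D3:**
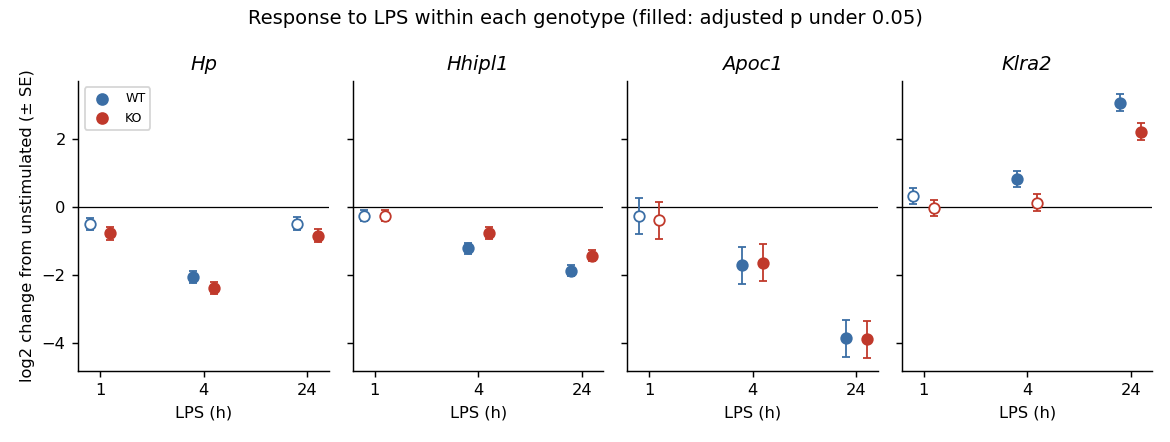
Log2 change from the unstimulated state with its SE (vertical axis) after 1, 4 and 24 h of LPS in WT (blue) and KO (red), with filled points where the adjusted p was under 0.05. Klra2 rose to 3.07 in WT and 2.22 in KO at 24 h, while Apoc1 fell to -3.86 and -3.89.

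The promoters of Klra2 and Hhipl1 were held in the RefSeq table (GRCm38.p6), which had an entry for 2 of the 4 genes. They are shown because they had an entry, and a link between their motifs and the changes with LPS or genotype was not tested. Each sequence runs 5′ to 3′ on the strand of its gene, from 250 bases before the start to 50 bases after it, and capitals mark matches to 7 motifs searched on both strands. The Klra2 promoter lies at chr6:131247313-131247612 (minus strand) and the Hhipl1 promoter at chr12:108306020-108306319 (plus strand).
Klra2: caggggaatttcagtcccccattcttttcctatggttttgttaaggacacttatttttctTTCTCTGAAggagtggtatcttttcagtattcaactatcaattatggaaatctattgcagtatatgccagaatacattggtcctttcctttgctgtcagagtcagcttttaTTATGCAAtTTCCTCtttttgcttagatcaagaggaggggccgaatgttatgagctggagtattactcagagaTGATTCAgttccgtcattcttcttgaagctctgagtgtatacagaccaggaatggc
Hhipl1: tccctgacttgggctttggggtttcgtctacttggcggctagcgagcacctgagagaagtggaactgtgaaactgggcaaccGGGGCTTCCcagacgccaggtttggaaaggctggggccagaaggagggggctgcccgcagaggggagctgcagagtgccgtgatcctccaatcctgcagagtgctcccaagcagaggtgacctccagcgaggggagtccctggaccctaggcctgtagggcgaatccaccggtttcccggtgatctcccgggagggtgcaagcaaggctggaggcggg
The Klra2 window held a C/EBP match (TTGCNNAA, reverse strand, TTATGCAA) 79 bases before the start and a STAT match (TTCNNNGAA, TTCTCTGAA) 190 bases before it. It also held a PU.1 match (GAGGAA, reverse strand) 70 bases and an AP-1 match (TGANTCA) 6 bases before the start, and no match overlapped another. Among 32851 promoters of the same length 10.8% held the C/EBP letters, 8.3% those of STAT, 28.3% those of PU.1 and 7.81% those of AP-1. The Hhipl1 window held a match to the letters searched for NF-kB (GGNNNTTCC, GGGGCTTCC), 168 bases before the start, which 18.5% of promoters held, and no other match. With the pattern longer by 1 leading G, as first searched and held by 5.56% of promoters, neither window had an NF-kB match. The Klra2 window did not hold these letters, nor those of the interferon-stimulated response element (AAANNGAAA, in 10.6% of promoters) or the TATA box (TATAAA, in 13.6%). The GC content was 39.3% for Klra2 and 63.7% for Hhipl1.

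The pathways of the 4 genes were described from lists of their partners. The shares beside the lists are over all 36927 features, of which 19664 were well above background in at least 8 of 16 channels. The lists differ from this, with 16 of 17 iron handling genes and 22 of 27 apolipoprotein and cholesterol transport genes above it in as many channels. An excess over these shares is therefore not read as a trait of a list. Of 17 genes for haptoglobin, heme and iron handling, 10 fell and 1 rose in WT at 4 h, with a median log2 change of -0.71, against 19.3% of all features that fell, 15.4% that rose and a median of -0.0026 over all features tested. The heme transporter Slc48a1 fell by 2.54 and the macrophage iron transporter Slc11a1 by 1.31, and at 24 h Slc48a1 remained below the unstimulated level (-1.42) while the Slc11a1 change was -0.16 and did not pass. Hmox1, the enzyme that degrades heme, did not pass the test at any time in WT (changes from 0.16 to 0.38). The ferritin subunits Fth1 and Ftl1 did not pass in WT either, while Ftl1 fell in KO at 24 h (-0.37). In the samples labelled KO 9 of the 17 fell and 2 rose at 4 h, where 19.8% of all features fell and 16.2% rose. Spic, a transcription factor of heme-handling macrophages, rose by 1.86 at 1 h and fell at 4 h, with a change of -1.11. Cd163, the haptoglobin receptor, was not well above background in any channel. Slc48a1 was the only other gene of the list that was lower in KO on all 8 arrays, with a mean ratio of -0.44, where 1.45% of all features were lower on all 8.

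Of 24 acute phase genes tested 9 rose and 2 fell in WT at 4 h, with a median of 0.08, where 15.4% of all features rose and 19.3% fell, and at 24 h 7 rose and 2 fell, where 13.5% of all rose and 16.8% fell. The genes that fell at 4 h were Hp, with a log2 change of -2.06, and Il6ra, a subunit of the interleukin 6 receptor, with -3.39. Lcn2, an iron carrier binding protein, rose by 4.90 at 4 h and by 9.48 at 24 h, and Il1rn, the interleukin 1 receptor antagonist, by 4.59 and 4.96. Cebpb, which encodes an acute phase transcription factor, rose by 1.15 at 4 h. In KO 6 rose and 4 fell at 24 h, against 13% and 15.7% of all features. Saa3 and C3 did not pass the test at 4 or 24 h in WT.

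Of 27 genes tested for apolipoproteins and cholesterol transport 14 fell and 3 rose in WT at 4 h, with a median of -0.35, where 19.3% of all features fell and 15.4% rose. At 24 h 12 fell and 2 rose, where 16.8% of all fell and 13.5% rose, with a median of -0.34 against -0.015 over all features. Lpl, the lipase that apolipoprotein C1 inhibits, fell at 24 h, with log2 changes of -3.15 in WT and -4.07 in KO. Lipa, the lysosomal acid lipase, fell too (-3.06 in WT and -3.16 in KO), as did Apobec1, an RNA editing enzyme for Apob (-2.46 and -2.22), and Apoe (-0.70 and -0.99). In KO 12 of the 27 fell and 4 rose at 24 h, against 15.7% and 13% of all features. Between the genotypes Apoe had a mean log2 KO/WT ratio of -0.05, higher on 4 of 8 arrays, and Lpl one of -0.24. Lipa, with a mean ratio of -0.48, was lower in KO on all 8 arrays, where 1.45% of all features were.

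Of 24 Ly49 and other killer lectin-like receptor genes tested, 10 were not well above background in any channel and 5 were above it in at least 8 of 16. Klra2 and Klra9 were the genes of this list that rose at 24 h, Klra9 by 2.07 in WT and by 1.77 in KO, and the 2 of 24 in WT stand against 13.5% of all features that rose. Klrd1 and Klrb1a passed as lower in WT, and they were well above background in 10 and 8 of the 16 channels. In WT 16.8% of all features fell, and in KO 2 of the 24 rose and 3 fell, against 13% and 15.7% of all. The median of the list at 24 h in WT was -0.025. Ly49 genes are similar in sequence, so a probe of one can capture transcripts of another, and the Klra2 and Klra9 values are uncertain to that extent. Klrb1a, with a mean ratio of -0.26, was lower in KO on all 8 arrays, where 1.45% of all features were.

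**Figure D4:**
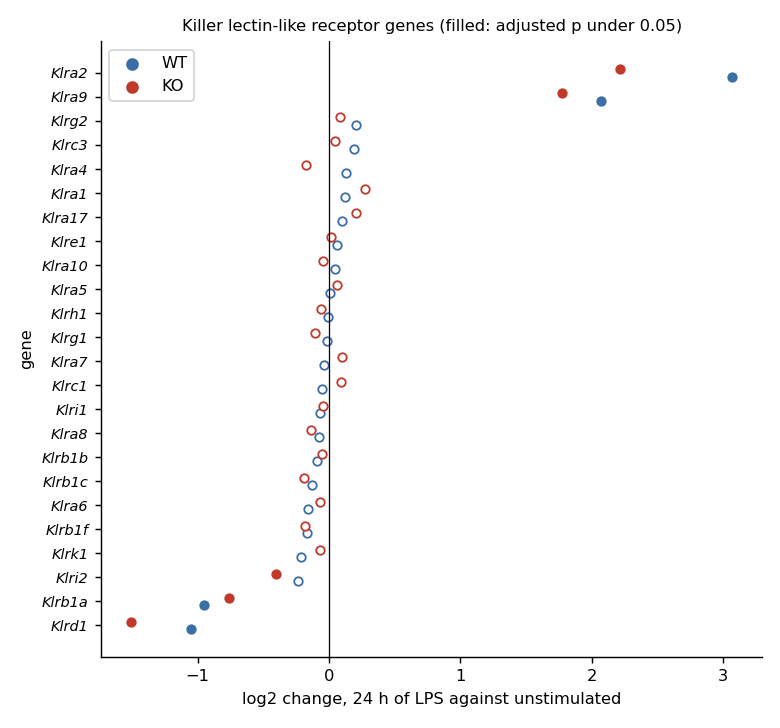
Log2 change from the unstimulated state after 24 h of LPS (horizontal axis) of 24 killer lectin-like receptor genes (vertical axis) in WT (blue) and KO (red), with filled points where the adjusted p was under 0.05. Klra2 and Klra9 stand to the right of 1 in both genotypes, and no other gene of the list rose.

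Of 21 genes of the Hedgehog pathway and HHIP family, 8 were not well above background in any channel, among them Hhip and Hhipl2. In WT at 24 h 3 fell and 2 rose, with a median of 0.01, against 16.8% and 13.5% of all features, and in KO 3 fell and 3 rose, against 15.7% and 13%. Smo, the signal transducer of the pathway, fell by 1.65 in WT and by 1.40 in KO, and Boc, a Hedgehog coreceptor, rose by 2.43 and 2.38. The median KO/WT log2 ratio of the list was -0.03.

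The KO/WT ratios of the measured genes beside the 4 genes on the chromosome were read as well. Over the 5 measured genes on each side, mean log2 KO/WT ratios lay from -0.07 to 0.11 around Hp, from -0.09 to 0.31 around Hhipl1, from -0.31 to 0.22 around Apoc1 and from -0.12 to 0.38 around Klra2. Among these 40 genes Magohb, the neighbour of Klra2 on one side, had 1 direction on all 8 arrays (mean 0.31). Of all features 1.35% were higher and 1.45% lower in KO on all 8, so 1 of 40 is near the background share. Klra1, the Ly49 gene next to Klra2 on the other side, had a mean ratio of -0.06 and was higher in KO on 4 of 8 arrays, while Klra9, the fourth gene on that side, had 0.38 and was higher on 7 of 8. The other Ly49 genes there, Klra7, Klra8 and Klra10, had mean ratios of 0.23, 0.16 and 0.06 and were higher in KO on 7, 6 and 6 arrays, but they were well above background in 5, 2 and 1 of the 16 channels. Apoc4, next to Apoc1, had a mean ratio of 0.15 and was higher in KO on 5 of 8 arrays.

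**Figure D5:**
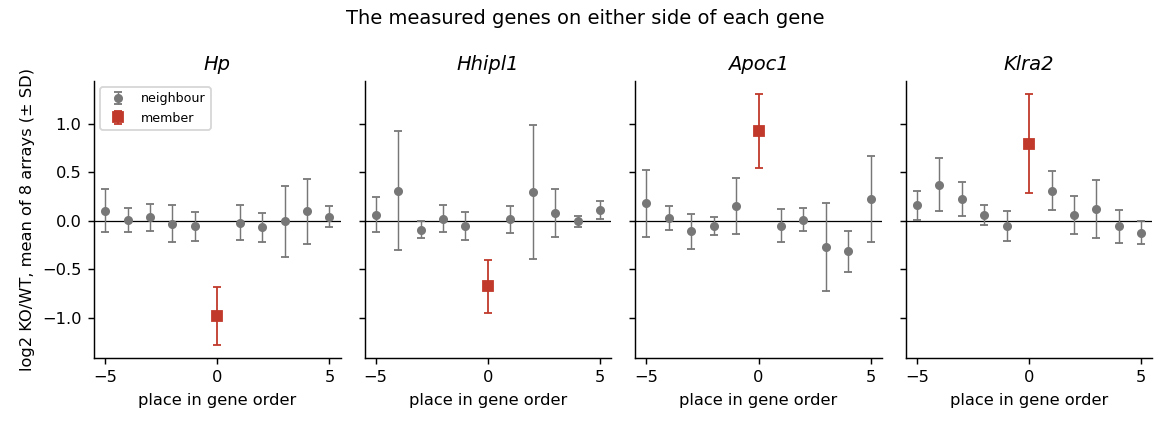
Mean log2 KO/WT ratio over the 8 arrays with its SD (vertical axis) of each gene (red square) and of the 5 measured genes on either side in the order of the annotation (grey points, horizontal axis). The neighbours lie between -0.31 and 0.38, and none reaches the value of the gene in its middle.

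The genes whose log2 intensities were most like those of each gene over the 16 channels were named from 12762 candidates, and these correlations describe channels that share arrays, LPS times and genotypes. Hhipl1 was closest to Prom1, a membrane protein of stem and epithelial cells (r = 0.99), to Madcam1, an adhesion ligand of lymphocytes (0.98), and to the dynamin Dnm1 (0.97). These 3 were lower in KO on all 8 arrays, with means from -0.63 to -0.46, where 1.45% of all features were. Hp was closest to Kcnk6 (0.94), Rusf1 (0.94) and Abcb8 (0.93). They were lower in KO on all 8 arrays too, with means from -0.27 to -0.25, against the same 1.45%. The 16 channels hold the genotype difference by which Hhipl1 and Hp were chosen, so the shared direction is partly built in. Apoc1 was closest to Tgfbr3, Lrg1 and the complement gene C1qb (each 0.96), whose KO/WT ratios did not have 1 direction. Klra2 was closest to LOC547349, to Vnn3, a pantetheinase, and to H2-M9, a non-classical MHC class I gene (each 0.96). They were higher in KO on 7, 6 and 6 of 8 arrays, with mean ratios of 0.21, 0.43 and 0.14. Vnn3 rose by 3.48 in WT at 24 h.

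Markers of the labelled cell type and of other cells were measured beside these results. Adgre1, Csf1r, Itgam, Lyz2, Mertk and Cd14, the 6 macrophage markers tested of 7, were well above background in at least 8 of 16 channels, and their summed intensity ran from 242562 to 728804 in WT and from 149643 to 480343 in KO samples. Lyz2, the locus of the Cre, is part of this sum, and without it the other 5 summed to 173281 to 434823 in WT and 133196 to 342083 in KO, with a mean log2 KO/WT ratio of -0.12 and a higher KO sum on 3 of 8 arrays. In bulk RNA, fewer cells of a type and less RNA per cell cannot be told apart. Of 8 NK cell markers Ncr1 and Klrb1c were not well above background in any channel, and the sum of the 8 ran from 2224 to 3436 in WT and from 2197 to 3608 in KO. Of 8 hepatocyte markers 5, with Alb, Ttr and Ahsg among them, were not above background, and the sum, mostly of Trf, which macrophages also express, ran from 15100 to 155129 in WT and from 14892 to 135692 in KO. Of 10 neutrophil markers 5, namely S100a9, Ngp, Mpo, Cxcr2 and Retnlg, were not above background, while S100a8 rose by 3.77 in WT at 24 h, and the sum ran from 5529 to 62658 in WT and from 5321 to 67912 in KO. This sum was lowest at 4 h (5529 to 6248 in WT and 5321 to 5469 in the samples labelled KO), as Hp was. At 24 h it was 25272 to 62658 in WT and 39863 to 67912 in KO. These sums were above the unstimulated ones of 8946 to 9783 and 8499 to 9406, while mean Hp at 24 h was below its unstimulated level. Without S100a8 the other 9 markers summed to 3512 to 3947 in WT and 3391 to 3745 in the samples labelled KO at 4 h, and to 3584 to 3627 and 3193 to 3713 at 24 h. The mean log2 KO/WT ratio of the sum was -0.01 for the neutrophil markers, which were higher in KO on 2 of 8 arrays, and -0.21 without 24 h replicate 2, where it was 1.43. It was 0.04 for the NK cell markers (6 of 8) and -0.09 for the hepatocyte markers (3 of 8).

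Other cells of the peritoneal cavity were present in the RNA. All 5 B cell markers tested of 6 were above background in at least 8 of 16 channels, with a sum from 35607 to 84073 in WT and from 27217 to 104823 in KO, as were 6 of 7 T cell markers (5293 to 12010 and 6551 to 14445) and 5 of 6 mast cell markers (1718 to 11869 and 3493 to 20041). The sum of the mast cell markers was higher in KO on 6 of 8 arrays with a mean log2 ratio of 0.41, that of the B cell markers on 6 (0.17), of the T cell markers on 4 (0.23) and of the dendritic cell markers on 7 (0.25). The mean log2 ratio of the sum was -0.39 for the macrophage markers with Lyz2, which were higher in KO on 1 of 8 arrays, -0.07 for small peritoneal macrophages (2 of 8) and 0.07 for mesothelial cells or fibroblasts (6 of 8). For large peritoneal macrophages it was -0.01, with a higher KO sum on 2 of 8 arrays, and the ratio of 1.46 on the array of 24 h replicate 2 set this mean, which was -0.22 over the other 7 arrays. Dendritic cell markers summed to 3463 to 20200 in WT and 4476 to 19676 in KO, large peritoneal macrophage markers to 33728 to 168352 and 56246 to 139980, small ones to 5246 to 13224 and 4921 to 13511, and mesothelial or fibroblast markers to 1136 to 2743 and 1193 to 3372. Several of these sums were lower at 24 h, as Apoc1 and Hhipl1 were. From the unstimulated state to 24 h the macrophage sum went from 532794 to 641933 down to 242562 to 263837 in WT and from 448314 to 451854 down to 149643 to 171064 in KO, and the hepatocyte sum from 117497 to 155129 down to 15100 to 19561 in WT and from 120779 to 135692 down to 14892 to 15013 in KO. The median log2 change at 24 h in WT was -1.68 over the macrophage, -1.49 over the large peritoneal macrophage and -1.59 over the mast cell markers. The part of these cells in the values of the 4 genes was not tested.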

How the data were processed

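RNA of peritoneal macrophages was measured on 8 arrays of 2 channels. The authors extracted spot intensities from the scans with Agilent Feature Extraction 10.7.3 (per the labels). The deposited files hold median spot and local background intensities without normalization between arrays, and the deposited matrix holds log2 ratios of Cy5 to Cy3, normalized and centred near 0 (column medians 0.006 to 0.011, r from 0.967 to 0.993 with the scanner values over 10204 spots), used as an alternative. The methods name loess and quantile normalization, a filter at log2 intensity 6 and a t-test. The mean spot intensity had been planned, and the median was used in its place. Samples were grouped by titles, since the growth protocol names 4 h for all samples.

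Intensities were corrected with normexp (offset 50), which draws ratios of dim probes towards 0, and normalized by loess and quantiles with limma 3.58.1 in R 4.3.3. Outlier spots (169 to 284 per array) were left out. The brightest probe stood for a gene, and features whose log2 intensity averaged 6 or more entered the tests. The 16 channels entered limma's separate-channel fit (lmscFit, statmod 1.5.0, within-spot correlation 0.12 from 5000 features) and eBayes, with Benjamini-Hochberg adjustment over 36927 features in each contrast. The number of arrays limits the precision, and with 2 replicates per group an SD has little weight. The labels and methods call the replicates biological, the animals behind each are not given in the sources used here, and p-values measure the spread between these samples. The script was tested on simulated data.

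Samples of the same replicate number resembled each other across time points. The difference between replicates 1 and 2 correlated between time points over features (r from 0.339 to 0.565 in WT and 0.215 to 0.337 in KO over 6 pairs). A number also fixes the dye, so a pairing of the samples and an effect of the dye cannot be told apart. The main fit had no term for the replicate number, which entered as an alternative.

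Of 55681 gene probes 27509 could be named through RefSeq identifiers. The members and lists were chosen with earlier results of these data known. Named beside the 4 genes were, per list, the 5 brightest and the 5 with the largest calls over 1 log2 unit, 3 most correlated genes for each, neighbours with a mean ratio beyond 0.5 (none), Furin, Lyz2 and cell type markers. Cd163, Hhip, Hhipl2, Apoc4, Magohb, Klra1, Klra7, Klra8 and Klra10 were named after their values were seen. Promoters came from RefSeq tables of GRCm38.p6, while the array design uses mm9, so no other positions are given. The NF-kB and interferon-stimulated response element patterns were shortened by 1 base after the first search.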

Additional observations from a re-analysis of the deposited data

How the results depend on the processing

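No direction of a called value reversed under any alternative. The number of LPS tests passed, 7 of 12 in WT and 8 of 12 in KO, was also 7 and 8 with the replicate number as a block, which changed no call in these tests, and ranged from 6 to 8 in each genotype with 1 array left out. With both 4 h arrays left out, an alternative chosen after seeing the data, 3 of the 8 remaining tests passed in WT and 5 of 8 in KO. The methods' t-test passed 1 of 12 in WT (Hp at 4 h) and 1 of 12 in KO (Klra2 at 24 h) after adjustment, on 2 samples against 2, where at 1, 4 and 24 h it passed 0%, 5.1% and 0.0162% of all features in WT and 0%, 1.97% and 1.47% in KO. The mean log2 KO/WT ratio of Hhipl1 moved from -0.67 to -1.14 with the processed signals and to -0.34 with the mean of both probes. With 1 array left out the mean ratios ranged from -1.03 to -0.90 for Hp, from -0.73 to -0.62 for Hhipl1, from 0.87 to 1.02 for Apoc1 and from 0.70 to 0.89 for Klra2. Signal near background limits the Hhipl1 values at 24 h, and 2 replicates per group limit every test.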

Other observations

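Of 16 genes for Ly49 signalling and MHC class I ligands, all of which were well above background in at least 8 of 16 channels, 5 rose and 5 fell in WT at 24 h, where 13.5% of all features rose and 16.8% fell, with a median log2 change of 0.02. These shares include features near background. Among 23081 features well above background in at least 2 of 16 channels, 11585 were called in either direction at that time. Tap1 and Tap2, which load peptides for MHC class I, rose by 2.63 and 1.18, and Siglec1, a sialic acid receptor of macrophages, rose by 4.90. Tyrobp and Hcst, adaptors of activating receptors, fell by 2.23 and 1.88. The class I genes H2-K1 and H2-D1 did not pass the test at that time. None of the 16 had 1 direction of the KO/WT ratio on all 8 arrays, where 1.35% of all features were higher and 1.45% lower on all 8.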
